A study of Mus musculus with 6 samples.

Results

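LILR, PILR, LAIR1, and SIRPα are immunoglobulin-superfamily receptors on the surface of myeloid cells, and 10 mouse genes for them were examined among the 54232 genes of the deposited files: *Lilrb4a*, *Lilrb3*, *Lair1*, *Pilra*, and *Sirpa*, which encode receptors of the inhibitory type, and *Lilr4b*, *Lilra6*, *Lilra5*, *Pilrb1*, and *Pilrb2*, which encode receptors of the activating or short-tailed type. The genes were chosen by name, with earlier results of these data known. In monocytes from the CNS of rIFN-β-treated mice with EAE, none of the 9 genes that could be tested differed between WT and *Ifnar1*-/- cells by the criteria used (an edgeR adjusted p no greater than 0.05 with a change of 1.5-fold or more). The receptors spanned a wide range of levels. *Lilrb4a* and *Lilr4b* were at the top (294 and 271 TPM on average, TPM being a level corrected for gene length). *Lilra5* was at or below the limit of detection.

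Such receptors commonly occur in pairs. The inhibitory partner has a long cytoplasmic tail with tyrosine motifs (ITIMs) that, once phosphorylated by Src-family kinases, recruit the phosphatases SHP-1 and SHP-2, whereas the activating partner has a short tail and signals through an adaptor, FcRγ or DAP12. Paired members often bind overlapping ligands, such as MHC class I for LILRB3 (long known in the mouse as PIR-B) and its activating relatives, and sialylated glycoproteins for the PILR family. LAIR1 binds collagens, and SIRPα binds CD47, which restrains phagocytosis.

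All 6 libraries came from mixed BM chimeras. Lethally irradiated GFP+ recipients (2 doses of 550 rad) received equal parts of WT donor BM, marked by CD45.1, and *Ifnar1*-/- donor BM, marked by CD45.2, were immunized for EAE 6 to 7 weeks later, and were given 30000 IU of IFN-β daily. At disease peak, donor monocytes (GFP-CD45+CD11b+Ly6Chi Ly6G-) were sorted from the CNS by the congenic marker into 3 WT and 3 *Ifnar1*-/- libraries. The comparison was therefore between cells with and without the type I IFN receptor chain IFNAR1 under the same treatment. There was no untreated group, every cell type derived from the *Ifnar1*-/- marrow lacked the receptor chain, and genotype and congenic marker cannot be told apart. The study describes as many recipient mice as libraries per genotype, but no source used here ties a library to a mouse, so the p-values measure the spread between these libraries, and whether that is a spread between mice is not known. The labels call the libraries of a group replicates 1 to 3, whereas the names under which they were deposited carry a further number, different for each library of a group and the same in both genotypes, that no source used here explains. If that number marks a condition, the libraries are not replicates, and the SDs and p-values below include its effect.

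Expected counts totaled 4531782 to 7321380 per library. Monocyte markers were abundant in every library, while the B cell genes *Cd79a*, *Ms4a1*, and *Pax5* and the microglial genes *Sall1*, *Gpr34*, and *Fcrls* were under 1 TPM in all 6. The B cell gene *Cd79b* was at 1.01 to 1.53 TPM in WT and 0.26 to 0.79 in *Ifnar1*-/- libraries, without overlap, and summed TPM of 8 microglial markers was 104 to 193 and 145 to 215. Summed TPM of 8 T cell markers was 21.3 to 49.3 in WT and 7.40 to 18.8 in *Ifnar1*-/- libraries, and that of 9 neutrophil markers was 314 to 3735 in WT and 1377 to 3889 in *Ifnar1*-/- libraries, lowest in WT library 1. Summed TPM of the 8 dendritic cell markers was 20.3 to 39.8, and that of the 5 NK cell markers was 1.30 to 14.9. The part of such cells in the receptor values was not tested, and in sorted bulk samples fewer expressing cells and less RNA per cell cannot be told apart. Of 12 interferon-stimulated genes, 11 rose in WT cells (*Isg15*, *Ifit1*, *Ifit2*, *Ifit3*, *Mx1*, *Irf7*, *Oas1a*, *Rsad2*, *Usp18*, *Cxcl10*, and *Stat2*), with log2 fold changes from 1.02 for *Cxcl10* to 5.22 for *Ifit3*. *Ly6c2*, which encodes the sorting marker Ly6C, was also higher in WT (log2 fold change 1.40, edgeR adjusted p = 0.00957). It was the 1 called of 8 monocyte markers, of which 5 had log2 fold changes above 0 and 3 below. *Ccr2* and *Fcgr1*, named after their values were seen, had -0.62 and 0.71 (edgeR adjusted p = 0.143 and 0.084). Their groups did not overlap in normalized CPM, as in 23.4% of all genes tested. The targeted gene *Ifnar1* was at 153, 126, and 111 normalized CPM in WT and 109.9, 101.5, and 109 in *Ifnar1*-/- libraries (log2 fold change 0.28, edgeR adjusted p = 0.360), and these counts cover the whole gene and cannot check the disrupted part.

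The genes lie at 4 places in the mouse genome (GRCm38, GENCODE M21). *Lilr4b* (chr10:51480632-51486703, + strand) and *Lilrb4a* (chr10:51490956-51496611, + strand) are neighbours. *Lilrb3* (chr7:3711409-3720391, - strand; annotated as *Pirb*), *Lilra6* (chr7:3908280-3915503, - strand), *Lair1* (chr7:4003402-4063204, - strand), and *Lilra5* (chr7:4237754-4243463, + strand) belong to the leukocyte receptor cluster. *Pilra* (chr5:137821952-137836281, - strand), *Pilrb1* (chr5:137852147-137858106, - strand), and *Pilrb2* (chr5:137865827-137871815, - strand) follow each other, and *Sirpa* (chr2:129592835-129632228, + strand) stands alone. The coding sequence was longer in the inhibitory member of each family than in its short-tailed relatives, with 1005 bases in *Lilrb4a* against 909 in *Lilr4b*, 2523 in *Lilrb3* against 1989 in *Lilra6*, and 906 in *Pilra* against 675 in *Pilrb1* and *Pilrb2* (stop codon not counted, longest complete coding transcript).

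The families are close copies, which matters because RSEM divides a read that fits several genes among them. The coding sequences of *Lilrb4a* and *Lilr4b* were identical at 96.0% of 907 aligned bases, those of *Pilrb1* and *Pilrb2* at 93.5% of 675, those of *Lilrb3* and *Lilra6* at 93.8% of 1987, and those of *Pilra* and *Pilrb1* at 82.7% of 671. The first 120 coding bases of the *Lilrb4a* and *Lilr4b* pair are shown because they differed at only 2 bases, given in capitals (GRCm38, chr10:51491018-51491483 and chr10:51480720-51481189, + strand, introns left out).
*Lilrb4a*: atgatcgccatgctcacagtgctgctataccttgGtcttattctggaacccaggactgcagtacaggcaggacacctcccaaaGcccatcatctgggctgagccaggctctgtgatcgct
*Lilr4b*: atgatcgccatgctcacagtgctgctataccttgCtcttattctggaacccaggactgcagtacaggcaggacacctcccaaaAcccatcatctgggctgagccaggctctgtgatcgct

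Stretches of 75 bases were then taken from every annotated transcript. They were used to see how much of each gene a read of that length could tell from other genes. The study describes paired-end reads of this length, and the ends of a pair were not considered together. All of the 5353 stretches of *Sirpa* and of the 2035 of *Lilra5* were found in no other gene, as were 99.9% for *Lair1* and 97.5% for *Pilra*. The share was 88.8% for *Pilrb1*, 89.8% for *Pilrb2*, 85.0% for *Lilr4b*, 82.9% for *Lilra6*, and 74.0% for *Lilrb3*. It was lowest for *Lilrb4a*, at 60.2%, because 32.2% of its stretches also occur in *Gm49339*, an annotated gene that spans both LILRB4 genes and whose coding sequence is identical to that of *Lilrb4a* over all 1005 bases. Counts of *Lilrb4a* and *Lilr4b*, of *Lilrb3* and *Lilra6*, and of *Pilrb1* and *Pilrb2* are therefore uncertain as counts of a single gene. *Pilra* also overlaps the end of *Zcwpw1* on the opposite strand, and the sources used here do not say whether counting used strand.

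Levels between genes were compared by TPM over all 6 libraries. *Lilrb4a* averaged 294 ± 46.0 TPM (SD, n = 6) and *Lilr4b* 271 ± 39.8, followed by *Sirpa* at 180.2 ± 35.9 and *Lilrb3* at 162 ± 24.8. *Pilra* averaged 83.6 ± 22.8 TPM and *Lair1* 68.8 ± 15.5, while *Pilrb1* and *Pilrb2* averaged 19.9 ± 3.87 and 18.6 ± 4.29, and *Lilra6* averaged 4.47 ± 0.888. The receptors thus fell into steps. The ranges of *Lilrb4a*, *Lilr4b*, *Sirpa*, and *Lilrb3* overlapped from each gene to the next, as did those of *Pilra* and *Lair1* and those of *Pilrb1* and *Pilrb2*, whereas the range of *Lilrb3* (134 to 196 TPM) lay above that of *Pilra* (53.1 to 121 TPM), that of *Lair1* (46.5 to 86.4) above that of *Pilrb1* (14.4 to 25.1), and that of *Pilrb2* (11.4 to 22.9) above that of *Lilra6* (3.12 to 5.57). Within each library the order was the same except for *Pilrb1* and *Pilrb2*, of which *Pilrb1* was higher in 4 of 6 libraries. *Lilrb4a* was at only 1.01 to 1.18 times the TPM of *Lilr4b*. Both levels depend on how reads shared with each other and with *Gm49339* were divided. TPM of 6 of the 9 receptors was lowest in WT library 1, where protein-coding genes took 34.8% of all TPM against 43.2% to 51.6% in the other 5 libraries, so groups were compared by counts.

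**Figure D1:**
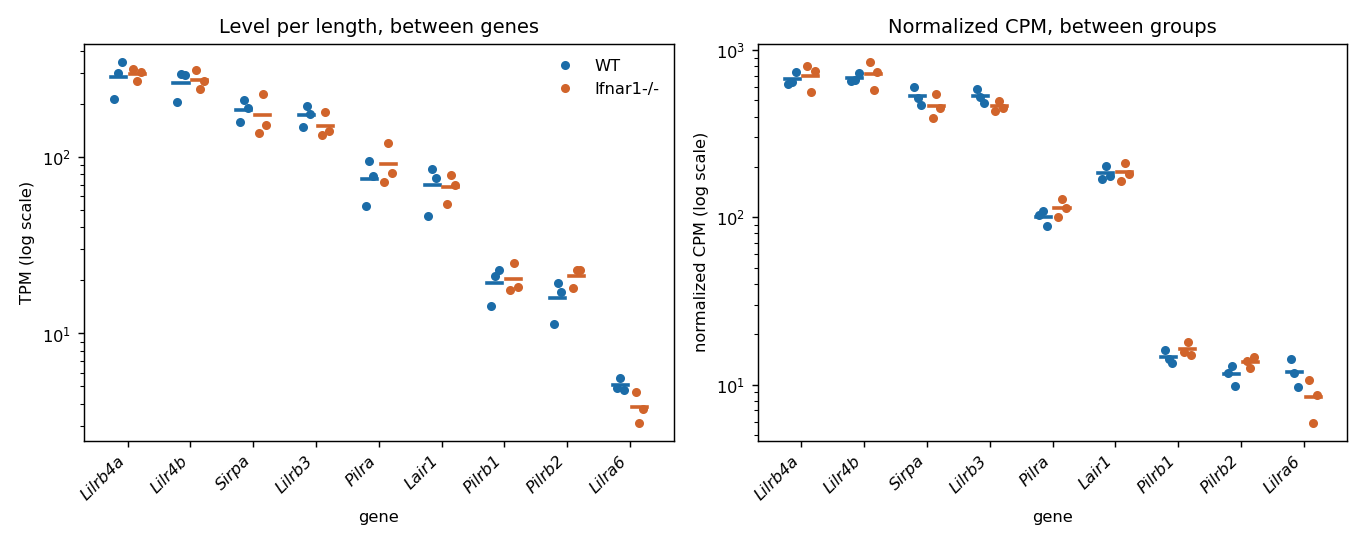
Levels of the 9 receptor genes above the detection limit in each library, as TPM (left, for comparing genes) and as normalized CPM (right, for comparing groups), both on log scales. Points are libraries (3 WT in blue, 3 Ifnar1-/- in orange) and bars are group means. As normalized CPM the 2 groups overlap for every gene, and as TPM they overlap for every gene but Lilra6.

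The main comparison asked whether signaling through IFNAR1 went with a different level of these receptors. It was made with edgeR's quasi-likelihood test over 11254 genes, of which 2.13% were called (1.67% higher and 0.462% lower in WT), and of the 9 receptor genes tested 0 were called in either direction. With an unadjusted p under 0.05 the count was 0 as well, against 17.8% of all genes tested, and DESeq2 also called 0 of the 9 against 4.17% of all genes. In normalized CPM, no receptor had its 3 WT libraries all above or all below the 3 *Ifnar1*-/- libraries, a separation seen in 23.4% of the genes tested. The absolute log2 fold change had a median of 0.19 over the 9 receptors and of 0.24 over all genes tested. Values below are normalized CPM (counts scaled by library size and TMM factors), and log2 fold changes are WT over *Ifnar1*-/- with 95% intervals.

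Among the inhibitory receptors, *Lilrb4a* (also called gp49B or ILT3) stood at 622, 645, and 737 in WT libraries 1, 2, and 3 and at 799.9, 560.4, and 744 in *Ifnar1*-/- libraries 1, 2, and 3. The WT values all lay inside the range of the *Ifnar1*-/- values, which held both the highest and the lowest library. The log2 fold change was -0.07 (interval -0.46 to 0.32, edgeR adjusted p = 0.876), and its sign turned without *Ifnar1*-/- library 1 (0.05).

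*Lilrb3*, a receptor for MHC class I, had 582, 524, and 481 normalized CPM in WT and 432, 498, and 449.8 in *Ifnar1*-/- libraries. Means were 529 ± 50.7 and 459.8 ± 34.3 (SD, n = 3 each), with *Ifnar1*-/- library 2 above WT library 3. The log2 fold change of 0.20 (interval -0.13 to 0.53) was not called (edgeR adjusted p = 0.521).

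*Sirpa*, whose product binds CD47, had 598, 518, and 469 normalized CPM in WT and 391, 548, and 450.4 in *Ifnar1*-/- libraries. *Ifnar1*-/- library 2 was again above part of the WT libraries, and the log2 fold change was 0.19 (interval -0.20 to 0.58, edgeR adjusted p = 0.610). The highest value of *Lilrb3*, *Sirpa*, and *Lilra6* alike was in WT library 1. Summed TPM of neutrophil markers was lowest in that library, but *Csf3r* of that list was highest there and *Retnlg* was not lowest. A link between these markers and the receptor values was not tested.

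*Lair1*, the collagen receptor, had the smallest difference of the 9, with 169, 203, and 176 normalized CPM in WT and 164, 212, and 182 in *Ifnar1*-/- libraries. The lowest and the highest value were both in the *Ifnar1*-/- group, and the log2 fold change was -0.02 (interval -0.36 to 0.32, edgeR adjusted p = 0.963), with a sign that changed with the settings.

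*Pilra*, the inhibitory receptor for sialylated proteins, had 103, 109, and 88.6 normalized CPM in WT and 100.2, 128, and 114 in *Ifnar1*-/- libraries. *Ifnar1*-/- library 1 lay among the WT libraries, and the log2 fold change was -0.19 (interval -0.52 to 0.15, edgeR adjusted p = 0.557).

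Among the activating and short-tailed receptors, *Lilr4b* (gp49A, which lacks the inhibitory tail) followed *Lilrb4a* closely, at 653, 665, and 732 normalized CPM in WT and 847, 575, and 743 in *Ifnar1*-/- libraries. The ratio of *Lilrb4a* to *Lilr4b* expected counts was between 0.944 and 1.01 in all 6 libraries. The log2 fold change of *Lilr4b* was -0.08 (interval -0.47 to 0.31, edgeR adjusted p = 0.858), with a sign that turned without *Ifnar1*-/- library 1 (0.07).

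*Lilra6*, an activating relative of *Lilrb3* that signals through FcRγ, had the largest log2 fold change of the 9. It was at 14.2, 11.7, and 9.67 normalized CPM in WT and at 10.7, 5.93, and 8.64 in *Ifnar1*-/- libraries, so that *Ifnar1*-/- library 1 was above WT library 3. The log2 fold change of 0.50 (interval -0.08 to 1.08) was not called (edgeR adjusted p = 0.348, unadjusted p = 0.084), and it rested on 35.3 to 99.7 expected counts per library. On the TPM scale its groups did not overlap (4.80 to 5.57 in WT, 3.12 to 4.68 in *Ifnar1*-/- libraries), as in 12.6% of the genes tested. Its estimate ran from 0.31 without *Ifnar1*-/- library 2 to 0.73 without *Ifnar1*-/- library 1.

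*Pilrb1* and *Pilrb2*, activating receptors that pair with DAP12, were low. *Pilrb1* had 16.1, 14.2, and 13.4 normalized CPM in WT and 15.6, 18.0, and 15.1 in *Ifnar1*-/- libraries, with a log2 fold change of -0.15 (interval -0.54 to 0.25, edgeR adjusted p = 0.709). *Pilrb2* had 11.7, 13.0, and 9.87 in WT and 13.7, 12.5, and 14.5 in *Ifnar1*-/- libraries, with a log2 fold change of -0.24 (interval -0.67 to 0.18, edgeR adjusted p = 0.551). The groups overlapped in both genes, since WT library 1 exceeded *Ifnar1*-/- libraries 1 and 3 for *Pilrb1* and WT library 2 exceeded *Ifnar1*-/- library 2 for *Pilrb2*.

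*Lilra5*, an activating receptor, had 1, 0, and 1 expected counts in WT and 1, 3, and 1 in *Ifnar1*-/- libraries. A count of 3, the limit taken for detection, corresponds to 0.410 to 0.662 CPM in these libraries and covers counting error only. The gene did not pass the filter on low counts, and no fold change is given.

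The intervals reflect the spread between these libraries in the edgeR fit only. They lay within a 2-fold change for 8 of the 9 receptors, the exception being *Lilra6* (0.946 to 2.11-fold), and within a 1.5-fold change for 7, the others being *Lilra6* and *Pilrb2* (0.630 to 1.14-fold). Two-sided exact permutation tests of the 9 genes gave p from 0.2 to 0.9, where 3 libraries against 3 cannot give less than 0.1. By direction, 3 receptors (*Lilrb3*, *Sirpa*, and *Lilra6*) had values above 0 and 6 below, of which 5 (all but *Pilra*) turned positive with offsets for GC content and gene length. The median log2 fold change was -0.02 over the 5 inhibitory genes and -0.11 over the 4 activating or short-tailed genes tested, beside -0.01 over all genes tested.

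**Figure D2:**
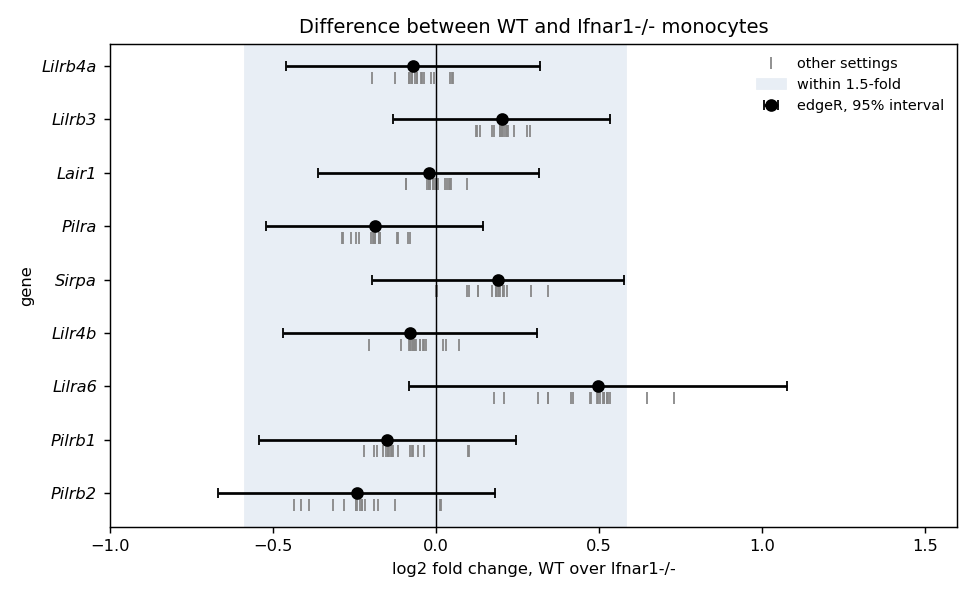
Log2 fold change of each receptor gene, WT over Ifnar1-/-, from edgeR with its 95% interval (black), with the estimates under other settings as grey ticks below it and the zone within a 1.5-fold change shaded. Every interval includes 0, and only those of Lilra6 and Pilrb2 leave the shaded zone.

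To take the division of shared reads out of the comparison, counts of close copies were also summed. *Lilrb4a* and *Lilr4b* together had a log2 fold change of -0.07 (interval -0.48 to 0.33), and with *Gm49339* added it was -0.06 (interval -0.45 to 0.32). The 3 PILR genes together gave -0.19 (interval -0.51 to 0.14). *Lilrb3*, *Lilra6*, *Pira2*, and *Gm15448* gave 0.21 (interval -0.13 to 0.54), and 0.18 (interval -0.15 to 0.51) with *Gm14548* and *Gm15922*. No sum was called by edgeR, with adjusted p from 0.511 to 0.886.

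The division of counts within each family was also compared. *Lilrb4a* took 39.7% ± 1.78 of the counts of its locus in WT and 39.8% ± 1.78 in *Ifnar1*-/- libraries (SD, n = 3 each), *Lilr4b* took 40.7% ± 0.856 and 40.9% ± 1.71, and *Gm49339* took 19.6% ± 2.56 and 19.3% ± 3.28. *Pilra* took 79.3% ± 0.610 of PILR counts in WT and 79.2% ± 1.73 in *Ifnar1*-/- libraries. *Lilrb3* took 79.9% ± 0.947 of the counts of the 6 PIR genes in WT and 78.7% ± 0.499 in *Ifnar1*-/- libraries, while *Lilra6* took 1.78% ± 0.193 and 1.47% ± 0.491. The share of *Lilra6* ran from 0.949% to 1.97% over the 6 libraries. Group ranges overlapped for every gene of these families but *Lilrb3* (79.2% to 81.0% against 78.1% to 78.9%). How often such shares separate in other gene families was not examined, and differences of shares were not tested.

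**Figure D3:**
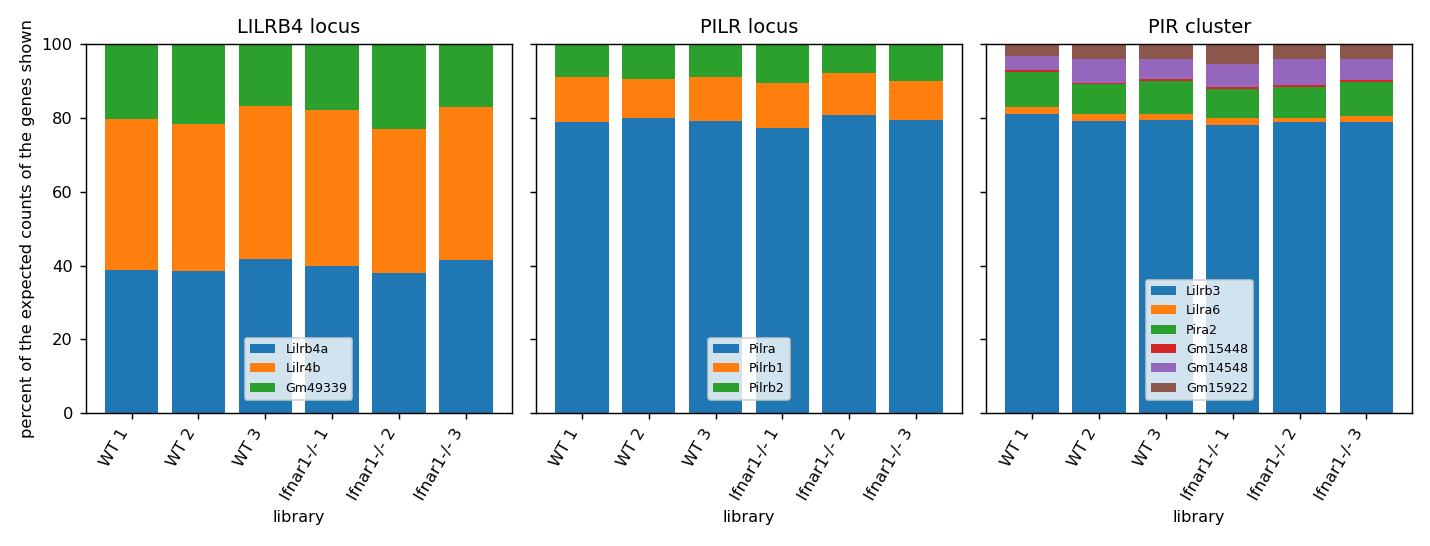
Share of expected counts taken by each gene of the LILRB4 locus, the PILR locus, and the PIR cluster, in percent of the counts of the genes shown, in each of the 6 libraries. Lilrb4a and Lilr4b take close to equal shares in every library, while Pilra and Lilrb3 each take from 77.4% to 81.0% of their family. Reads that fit several of these genes were divided among them by RSEM.

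Promoter sequences were examined because type I IFN is known to act on many of its target genes through a short DNA element. RefSeq windows (GRCm38.p6) from 250 bases before to 50 after the annotated start were given for 8 of the 10 receptor genes, *Lilrb4a* and *Sirpa* being the others. Both strands were searched for the core of the interferon-stimulated response element (ISRE), spelled GAAA, any 2 bases, and GAAA, and for the gamma-activated site (GAS), spelled TTC, any 3 bases, and GAA. The ISRE core was found in 3.44% of all 32851 windows, in 27.8% of the 187 windows of genes called higher in WT, and in 7 of the 10 windows of the interferon-stimulated genes above. Among the receptors it was found once in each of *Pilra*, *Pilrb1*, and *Pilrb2*, none of which was called. The GAS, found in 8.30% of all windows, occurred once in *Lilr4b* and once in *Lilra5*. *Lilrb3*, *Lilra6*, and *Lair1* held neither. These are matches of letters only.

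The 250 bases before the start of the 3 PILR genes are shown because they hold the same element in a shared stretch, with the match in capitals (chr5:137836279-137836528, chr5:137858050-137858299, and chr5:137871759-137872008, - strand).
*Pilra*: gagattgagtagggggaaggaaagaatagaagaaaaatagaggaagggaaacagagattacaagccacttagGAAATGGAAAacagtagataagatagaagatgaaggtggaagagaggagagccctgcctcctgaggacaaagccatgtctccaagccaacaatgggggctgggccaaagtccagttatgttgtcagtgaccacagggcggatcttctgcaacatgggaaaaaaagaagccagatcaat
*Pilrb1*: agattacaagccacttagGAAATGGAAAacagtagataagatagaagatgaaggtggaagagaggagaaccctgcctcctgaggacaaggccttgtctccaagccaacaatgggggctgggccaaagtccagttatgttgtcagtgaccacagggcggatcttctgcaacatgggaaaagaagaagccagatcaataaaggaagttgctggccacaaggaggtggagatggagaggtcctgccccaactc
*Pilrb2*: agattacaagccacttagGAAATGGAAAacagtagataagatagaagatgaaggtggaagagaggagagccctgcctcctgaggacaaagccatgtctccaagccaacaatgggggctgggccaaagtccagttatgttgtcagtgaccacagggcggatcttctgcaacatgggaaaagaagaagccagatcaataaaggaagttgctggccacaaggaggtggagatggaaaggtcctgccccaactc

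The match starts 178 bases before the annotated start of *Pilra* and 232 bases before those of *Pilrb1* and *Pilrb2*. The windows of *Pilra* were identical to those of *Pilrb1* at 98.4% and of *Pilrb2* at 99.2% of 246 aligned bases, and those of *Pilrb1* and *Pilrb2* at 97.3% of 300, yet *Pilra* was at 3.43 to 4.80 times the TPM of *Pilrb1* in every library.

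The starts of *Lilrb3* and *Lilra6* are shown for the same contrast, near-identical sequence before genes of very different level, with the 8 bases that differ in their alignment in capitals (chr7:3720383-3720632 and chr7:3915502-3915751, - strand).
*Lilrb3*: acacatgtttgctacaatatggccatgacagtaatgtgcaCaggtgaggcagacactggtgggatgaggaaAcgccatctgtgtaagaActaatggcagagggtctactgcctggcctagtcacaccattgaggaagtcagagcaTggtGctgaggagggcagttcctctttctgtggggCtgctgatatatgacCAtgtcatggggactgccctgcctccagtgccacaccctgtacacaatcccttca
*Lilra6*: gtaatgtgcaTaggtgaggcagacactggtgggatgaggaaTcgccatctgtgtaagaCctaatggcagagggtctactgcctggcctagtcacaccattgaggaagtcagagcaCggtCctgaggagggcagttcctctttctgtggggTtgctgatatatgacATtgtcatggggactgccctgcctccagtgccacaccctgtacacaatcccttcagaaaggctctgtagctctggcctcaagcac

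Over the 220 bases that align, 96.4% were identical, while *Lilrb3* was at 28.6 to 57.8 times the TPM of *Lilra6* across the 6 libraries. Of the 75-base stretches of *Lilra6*, 12.0% also occur in *Lilrb3*, and a single read from one of them fits both genes.

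Other receptors of these families were tested in the same fit. Of 19 listed, 10 were found in the annotation and 9 were tested, and edgeR called 0 of them, with a median log2 fold change of 0.03. The most highly expressed was the SIRP relative *Sirpb1c* at 193 ± 51.3 TPM in WT and 183 ± 22.6 in *Ifnar1*-/- libraries (log2 fold change -0.05), followed by *Tarm1* (0.03), *Sirpb1a* (0.25), and *Gm9733* (-0.15). *Sirpb1b*, named after its value was seen, was the single gene with an unadjusted p under 0.05 (log2 fold change 0.37, edgeR adjusted p = 0.219). Of all genes tested, 17.8% had such a p. *Oscar* was listed at 0 in every library.

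The signaling partners were also tested. Highest were the adaptors *Fcer1g* (FcRγ) and *Tyrobp* (DAP12), which carry the signal of the activating receptors, at 1130.0 ± 206 and 502 ± 103 TPM in WT and 870.4 ± 267 and 542 ± 29.9 in *Ifnar1*-/- libraries, above all 10 receptors in level. Their log2 fold changes were 0.34 (interval -0.06 to 0.73) and -0.20 (interval -0.49 to 0.10). The Src-family kinase *Lyn* (-0.04) and the phosphatase *Ptpn6* (SHP-1, 0.18) were close to 0. Of the 16 adaptors, kinases, and phosphatases, edgeR called 0. Against 17.8% of all genes tested, 4 of the 16 had an unadjusted p under 0.05. Among them were *Csk*, *Syk*, and *Ptk2b*, named after their values were seen, with log2 fold changes of 0.52, 0.46, and 0.49 and adjusted p of 0.118, 0.228, and 0.177 by edgeR. The median log2 fold change of the list was 0.20.

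Of the ligand genes, *H2-K1* and *B2m* of MHC class I had the largest differences. *H2-K1* had 2028, 1841, and 1685 normalized CPM in WT and 926, 1218, and 1185 in *Ifnar1*-/- libraries, and *B2m*, its light chain, had 2229.9, 2112, and 1825 against 1001, 1556, and 1284. In both genes every WT library was above every *Ifnar1*-/- library, as in 11.1% of all genes tested. The log2 fold changes were 0.74 (interval 0.35 to 1.13) for *H2-K1* and 0.68 (interval 0.24 to 1.12) for *B2m*, with edgeR adjusted p of 0.066 and 0.118, so neither was called. *H2-D1*, named after its values were seen, had 0.63 (adjusted p = 0.114 by edgeR). All 3 genes were called by DESeq2, so this result depends on the test. *Cd47*, the ligand of SIRPα, had a log2 fold change of 0.20 (interval -0.12 to 0.53) and was not called. *Fn1* and *Apoe*, whose products are described as ligands of LILRB4, had log2 fold changes of -0.03 and 0.65 with wide intervals (-0.74 to 0.67 and -0.13 to 1.43). In all, 8 of 17 ligand genes were tested and edgeR called 0. Of these 8, 3 had an unadjusted p under 0.05, against 17.8% of all genes tested. The collagens *Col1a1*, *Col1a2*, *Col3a1*, and *Col4a1*, ligands of LAIR1, did not pass the filter. *C1qa*, a subunit of C1q and listed as a LAIR1 ligand, was named after its values were seen because it had the largest difference below 0 among the ligands. It was at 84.0, 104, and 92.4 normalized CPM in WT and 90.6, 130.1, and 154 in *Ifnar1*-/- libraries, which overlapped, with a log2 fold change of -0.42 (interval -0.85 to 0.01, edgeR adjusted p = 0.292).

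**Figure D4:**
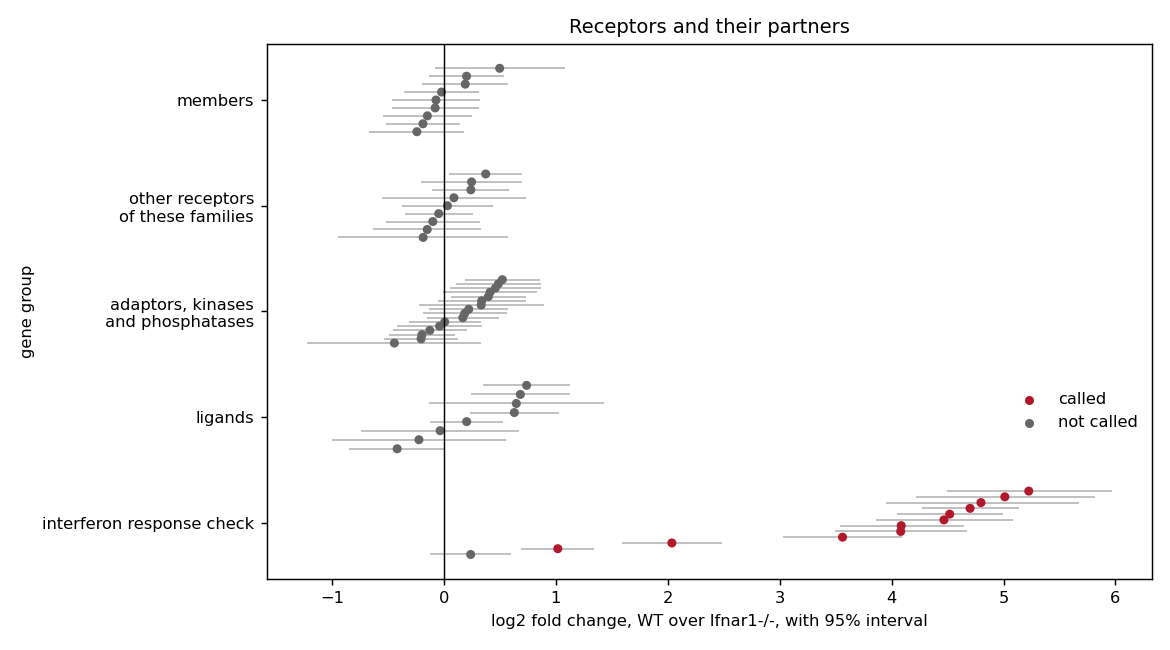
Log2 fold change, WT over Ifnar1-/-, with 95% intervals for the 9 receptor genes tested (members), other receptors of the same families, adaptors, kinases and phosphatases, ligands, and the interferon-stimulated genes. Genes called by edgeR are red: 11 of 12 interferon-stimulated genes and no gene of the other groups.

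For *Lilra6* and *Pilrb2*, which had the largest differences in either direction, the genes with the most similar pattern over the 6 libraries were sought among 4446 genes with a mean of at least 32 normalized CPM. They were *Rbm47*, *Phf8*, and *9530068E07Rik* for *Lilra6* (Pearson's r of 0.991, 0.984, and 0.963) and *Plaa*, *Anapc4*, and *Cstb* for *Pilrb2* (0.987, 0.980, and 0.975). With 6 libraries and this many genes, correlations of this size are a description of the libraries, and none of these 6 genes was called.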

How the data were processed

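RNA-seq of WT and *Ifnar1*-/- CNS monocytes (3 libraries each, grouped and numbered by the deposited labels) was analyzed from the gene-level files. Per the labels, the authors used STAR 2.6.0c and RSEM 1.2.31 on GRCm38. The deposited expected counts are estimated by the authors and not normalized. For TPM, the authors corrected for length and set each library to the same total. Deposited FPKM values were not used. Library totals were 4531782 to 7321380 counts.

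Identifiers were matched to GENCODE M21 (54165 of 54232 matched), with *Lilrb3* found as *Pirb*, its RefSeq synonym. Counts were rounded and tested with edgeR 4.0.16 in R 4.3.3 (TMM, filterByExpr with a minimum count of 10, quasi-likelihood test without a block, Benjamini-Hochberg adjustment over the 11254 of 21265 genes with any count that passed the filter). Exact permutation tests used log2(normalized CPM + 0.5). No pair of libraries of a group agreed within sampling noise. Alternatives were DESeq2 1.42.0 (the study's tool), limma 3.58.1 (voom, and log2(TPM + 1) or + 0.1), RLE, other filters, offsets for GC content and length, a replicate block, leaving out each library, and summed copies. Sums with *Gm49339*, *Gm14548*, and *Gm15922* and TPM rescaled to protein-coding genes were chosen after seeing the data. Coding sequences came from GENCODE M21 transcripts and promoter windows from RefSeq (GRCm38.p6). Protein sequences were not analysed here, and a few listed genes are not reported.

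The receptors and the gene lists were chosen with earlier results of these data known. Named genes were the 10 receptors, the called and up to 4 most highly expressed genes of each list, and for the 2 receptors with the largest changes the 3 most correlated genes.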

Additional observations from a re-analysis of the deposited data

How the results depend on the processing

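Over 182 estimates of the 9 receptors under alternative settings, 164 kept their direction, 18 changed sign, and 0 were called. The smallest adjusted p was 0.299 (*Lilra6*, edgeR with a replicate block). The estimates that had changed sign reached up to 0.10, while the main estimates of *Pilrb1* and *Pilrb2*, which were among these genes, were -0.15 and -0.24. With offsets for GC content and gene length, log2 fold changes were 0.042 for *Lilrb4a*, 0.023 for *Lilr4b*, 0.034 for *Lair1*, 0.10 for *Pilrb1*, and 0.015 for *Pilrb2*, and with the same offsets and the replicate block 0.049, 0.032, 0.043, 0.099, and 0.012. *Lair1* was at 0.0073 by limma on log2(TPM + 1), at 0.0069 on log2(TPM + 0.1), and at 0.048 with TPM rescaled to protein-coding genes. Leaving out each library gave -0.20 to 0.053 for *Lilrb4a*, -0.20 to 0.071 for *Lilr4b*, and -0.092 to 0.097 for *Lair1*, the sign of *Lair1* changing without WT library 1, WT library 3, or *Ifnar1*-/- library 2. *Sirpa* was at 0.0012 with the offsets. The cause of these changes was not tested. An unadjusted p under 0.05 occurred for *Lilra6* without WT library 3 or without *Ifnar1*-/- library 1, and for *Pilrb2* with TPM rescaled to protein-coding genes.

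Genes called higher and lower in WT, 188 and 52 in the main test, were 354 and 115 by DESeq2, 610 and 262 without a filter, 112 and 16 by limma on log2(TPM + 1), 111 and 13 on log2(TPM + 0.1), 143 and 18 with rescaled TPM, 191 and 26 with the offsets, and 214 and 27 with offsets and block. Leaving out each library gave 110 to 204 and 7 to 41, with 7 lower without WT library 3 or *Ifnar1*-/- library 1, 10 without *Ifnar1*-/- library 3, 25 without *Ifnar1*-/- library 2, and 26 without WT library 1, and with 110 and 112 higher without *Ifnar1*-/- libraries 3 and 1. Ligand genes called higher numbered 3 by DESeq2 with and without the block (*B2m*, *H2-K1*, and *H2-D1*), 3 without a filter (*Apoe*, *B2m*, and *H2-K1*), and 1 by limma-voom and with the offsets (*H2-K1*). Both genotypes were sorted from mixed chimeras, but no source used here says that same-numbered libraries share a mouse. Their deviations correlated at 0.097, 0.021, and 0.232, against -0.17 to 0.066 for other pairs, and every library but *Ifnar1*-/- library 2 correlated best with its own number, a hint from the data only, so the numbers were not taken as pairs. The replicate block gave 182 and 38 calls, and none among the receptors. *Lilra5* had at most 3 counts per library, and whether this reflects sequencing depth or absent expression was not tested.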
